A study of Saccharomyces cerevisiae with 18 samples.

Results

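The 36 yeast genes described here encode the enzymes that carry glucose to pyruvate, the alcohol dehydrogenases, the enzymes of glycerol synthesis, the enzymes that set fructose 2,6-bisphosphate, both key enzymes of gluconeogenesis and 3 transcription factors of glycolytic genes. They were chosen by gene name. Of the 36, 35 were measured, each with 1 probe, among 5365 genes with a named probe. GPP2, a paralog of the glycerol phosphatase GPP1, had no probe under its name and is not analysed here. All 35 had values on enough arrays to be tested.

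Glycolysis splits glucose into pyruvate and yields ATP, and in baker's yeast growing on glucose most of the pyruvate is then turned into ethanol by pyruvate decarboxylase and alcohol dehydrogenase. Many steps are run by isoenzymes, and in several pairs 1 gene is the abundant form during growth on glucose while its relative is held low by glucose or raised under stress. Gluconeogenesis runs the path in the other direction, and fructose 2,6-bisphosphate is the small molecule that favours glycolysis over it. Glycerol is made from a glycolytic intermediate and both balances NADH and serves as the osmolyte of the cell.

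Strain S288C was grown at 25 °C in YPD, a rich medium with glucose, to an optical density of 1 and was then exposed for 2 h to 1.5 mM p-nitrophenol, 5 mM m-nitrophenol or 3 mM o-nitrophenol. The isomers carry the nitro group opposite the hydroxyl group (p), next to it (o) or between these places (m). Each isomer has 3 arrays from separate biological samples, 9 in all, with Cy5-labelled polyA RNA of treated cells against Cy3-labelled polyA RNA of cells before treatment. The values are log2 ratios, likely of treated over before treatment, so a value of 1 is a rise of 2-fold and a negative value is a lower level in treated cells. They compare shares of polyA RNA in a whole culture, where fewer cells with a transcript and less of it per cell cannot be told apart. The control is labelled as taken before treatment, so each ratio may hold 2 h of further growth, and any difference between the dyes, beside the compound. For the m- and o-nitrophenol arrays the label of the control adds a time of 2 h, and for the p-nitrophenol arrays it does not. If those controls were also kept for 2 h, the ratios of p-nitrophenol and of the other isomers rest on different controls, which the labels do not settle. The doses differ between isomers, so the isomer and its dose cannot be told apart in any comparison between them. The labels do not say whether the RNA before treatment was shared between arrays.

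A high-power and a low-power laser scan of each array were averaged, so n is 3 arrays per isomer. CDC19 had only low-power values on all 9 arrays, TDH2 on 5, HXK1 and TDH1 on 4, and PGI1, TDH3 and PGK1 on 3. GPM2 and FBP1 had only high-power values on 3 arrays each, those numbered 1 for GPM2, and PYK2, ADH3, FBP26 and PCK1 on 2. Where a gene had both scans on an array, they differed by a median of 0.156 over the genes, and by 1.06 at most, for ADH4. The array numbered 1 of each isomer stood apart. It held values for 4369, 1970 and 3797 genes (p, m and o), against 5155 to 5343 on the other arrays, and lacked 1, 9 and 4 of the 35 genes. Over the genes described here, the p-nitrophenol array 1 correlated with its replicates at r = 0.09 and 0.22, where arrays 2 and 3 correlated at 0.84. For m-nitrophenol these values were 0.72, 0.68 and 0.83, and for o-nitrophenol 0.62, 0.59 and 0.94. Genes are not independent points in such a correlation. Results are therefore given on all 9 arrays, with the calls that differ on arrays 2 and 3 alone. The arrays left out there agreed least with their replicates, in part judged over these same genes. That choice by itself lowers the standard errors. Adjusted p values on arrays 2 and 3 alone are therefore likely too small, and such calls are a description.

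After p-nitrophenol 2 genes, PFK26 and PCK1, rose and 3, PFK2, ADH4 and GPD2, fell (limma, Benjamini-Hochberg adjusted p below 0.05 over the 5096 genes tested). Among all genes tested, 13.0% rose and 11.9% fell. After m-nitrophenol 4 rose (TDH1, TDH3, PFK26, PCK1) and 4 fell (HXK2, ADH4, GPD2, PFK27), where 8.26% of all genes rose and 9.65% fell. After o-nitrophenol 10 rose (HXK1, PFK2, TDH1, TDH3, GPM2, ENO1, ADH1, ADH2, ADH5, PFK26) and 2 fell (ADH3, ADH4), where 13.8% of all genes rose and 18.7% fell. The rise after o-nitrophenol was thus called in 10 of 35, a larger share than over all genes, and the fall in 2 of 35, a smaller one. The median over the 35 genes was -0.53 after p-nitrophenol, 0.16 after m-nitrophenol and 0.56 after o-nitrophenol, where the medians over all genes were 0.10, 0.04 and -0.17.

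Without the 3 arrays numbered 1, more genes were called in each isomer. After p-nitrophenol 3 rose and 14 fell, where 22.7% of all genes rose and 19.7% fell. After m-nitrophenol 12 rose (HXK1, TDH1, TDH3, GPM1, GPM2, ENO2, ADH1, ADH5, PFK26, FBP1, FBP26, PCK1) and 7 fell (HXK2, EMI2, PGK1, CDC19, ADH4, GPD2, PFK27), where 21.8% and 18.4% of all genes did. After o-nitrophenol 16 rose (HXK1, PFK1, PFK2, FBA1, TPI1, TDH1, TDH2, TDH3, GPM1, GPM2, ENO1, ENO2, ADH1, ADH2, ADH5, PFK26) and 1, GPP1, fell, where 22.5% and 29.4% did. All 5 genes called after p-nitrophenol and all 8 called after m-nitrophenol on 9 arrays were called again. After o-nitrophenol 10 of 12 were, and the exceptions were ADH3 and ADH4. The 14 that fell after p-nitrophenol were HXK1, HXK2, GLK1, EMI2, PGI1, PFK2, PGK1, GPM2, ENO2, CDC19, ADH3, ADH4, GPD1 and GPD2.

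**Figure D1:**
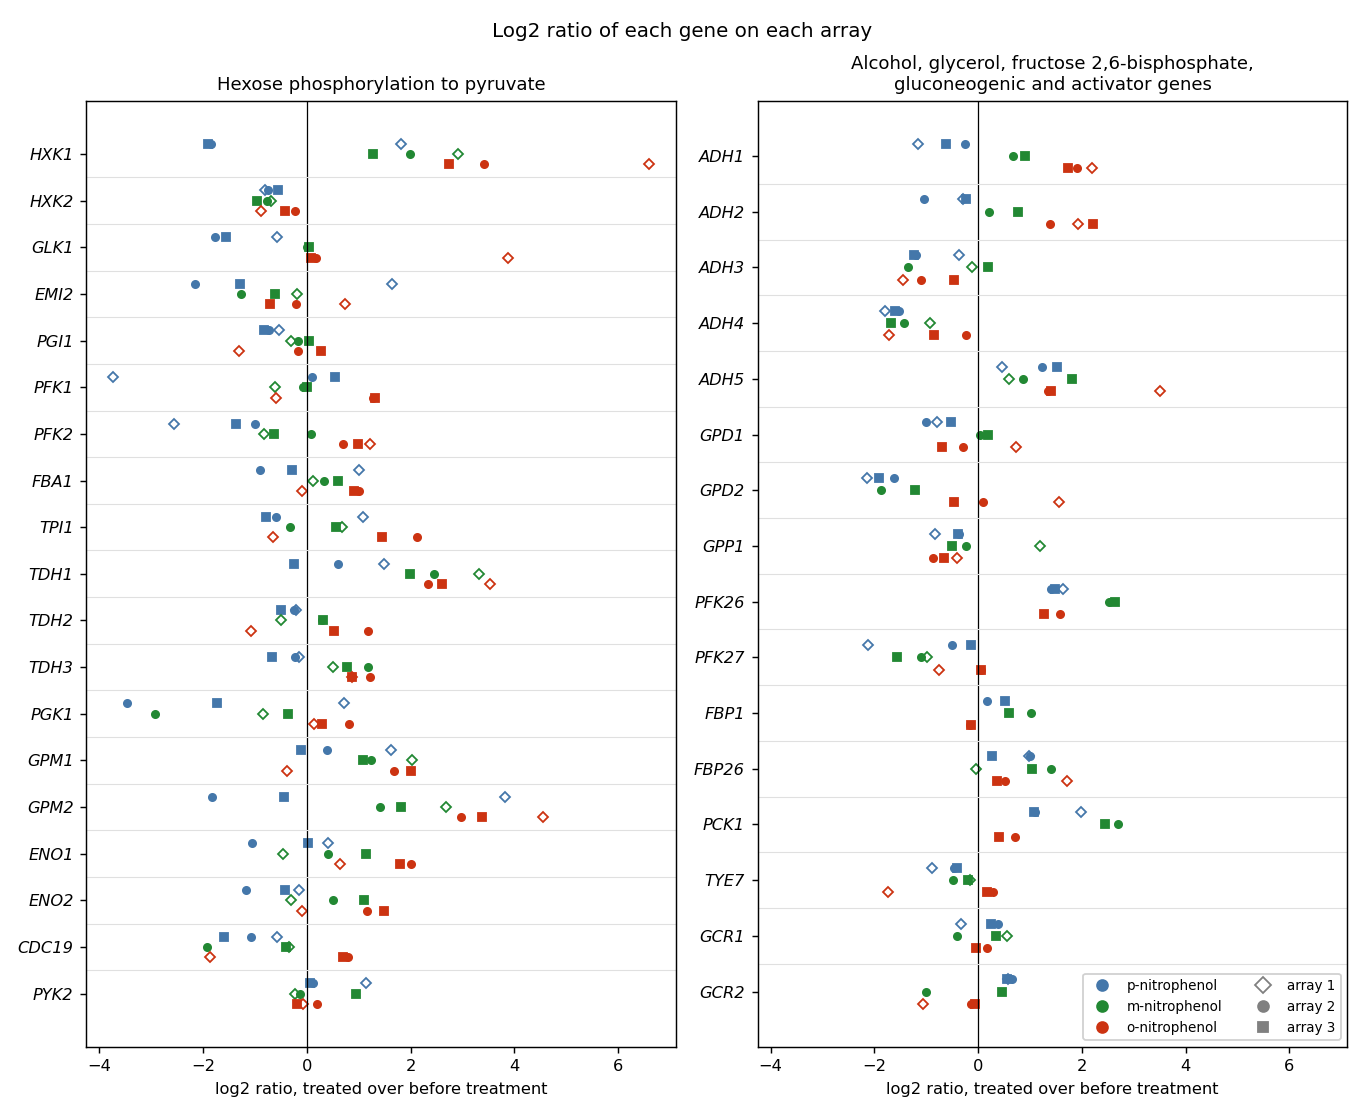
Log2 ratio (horizontal axis, treated over before treatment) of each of the 35 genes on each of the 9 arrays, coloured by isomer, with open diamonds for the arrays numbered 1. HXK1 lies at -1.84 and -1.91 on p-nitrophenol arrays 2 and 3 and between 2.75 and 6.60 on the o-nitrophenol arrays, and the open diamonds often lie away from the other 2 arrays of their isomer.

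The entry of glucose into glycolysis is run by HXK2, the main hexokinase during growth on glucose, by HXK1 and the glucokinase GLK1, which glucose keeps low, and by EMI2, a paralog of GLK1. HXK1 had log2 ratios of 1.81, -1.84 and -1.91 on p-nitrophenol arrays 1, 2 and 3. It stood at 2.91, 1.98 and 1.28 after m-nitrophenol and at 6.60, 3.41 and 2.75 after o-nitrophenol. The o-nitrophenol values were all above 2, and arrays 2 and 3 of p-nitrophenol were the only ones with a negative value. HXK1 rose 19.1-fold after o-nitrophenol (4.25 ± 0.81 SE, adjusted p = 0.00368). Its means after p-nitrophenol (-0.64 ± 0.81, adjusted p = 0.585) and m-nitrophenol (2.06 ± 0.81, adjusted p = 0.103) did not pass. On arrays 2 and 3 alone HXK1 fell after p-nitrophenol (-1.87 ± 0.27, adjusted p = 0.00106) and rose after m-nitrophenol (1.63 ± 0.27, adjusted p = 0.00189).

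HXK2 was below 0 on all 9 arrays. Its log2 ratios were -0.80, -0.75 and -0.55 after p-nitrophenol, -0.69, -0.77 and -0.96 after m-nitrophenol and -0.89, -0.23 and -0.42 after o-nitrophenol. The groups overlapped. HXK2 fell after m-nitrophenol (-0.81 ± 0.23, adjusted p = 0.0381), and its means of -0.70 ± 0.23 and -0.52 ± 0.23 after p- and o-nitrophenol did not pass (adjusted p = 0.0509 and 0.112). The m-nitrophenol call was lost without p-nitrophenol array 2 or 3, any m-nitrophenol array or o-nitrophenol array 3, with adjusted p values of 0.0583, 0.0643, 0.0747, 0.193, 0.208 and 0.061 in that order. It was also lost with high-power scans alone (adjusted p = 0.052) and when only genes on all 9 arrays were fitted (0.0617). GLK1 had means of -1.31 ± 0.64, 0.03 ± 0.78 and 1.38 ± 0.64 after p-, m- and o-nitrophenol, and EMI2 of -0.60 ± 0.59, -0.69 ± 0.59 and -0.06 ± 0.59, none past the threshold. On o-nitrophenol array 1 GLK1 stood at 3.87, against 0.19 and 0.08 on arrays 2 and 3. With the arrays numbered 1 left out, GLK1 fell after p-nitrophenol (-1.67 ± 0.22, adjusted p = 0.000651), as did HXK2 (-0.65 ± 0.22, adjusted p = 0.0434), and EMI2 fell after p- and m-nitrophenol (-1.72 ± 0.30 and -0.94 ± 0.30, adjusted p = 0.00235 and 0.0324).

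PGI1 interconverts glucose and fructose phosphates, and PFK1 and PFK2 are the subunits of phosphofructokinase, the committed step. PFK2 gave -2.57, -1.003 and -1.37 after p-nitrophenol, -0.83, 0.07 and -0.64 after m-nitrophenol and 1.23, 0.70 and 0.99 after o-nitrophenol. All p-nitrophenol arrays were below every m-nitrophenol array and all o-nitrophenol arrays were above. PFK2 fell 3.13-fold after p-nitrophenol (-1.65 ± 0.33, adjusted p = 0.00698) and rose 1.96-fold after o-nitrophenol (0.97 ± 0.33, adjusted p = 0.0443). The o-nitrophenol call was lost without p-nitrophenol array 3, m-nitrophenol array 2 or 3 or any o-nitrophenol array, with adjusted p values of 0.0539 to 0.147. It was also lost with low-power scans alone (adjusted p = 0.0622) and when only genes on all 9 arrays were fitted (0.0549). PFK1, the other subunit, gave -3.74 on p-nitrophenol array 1 and 0.09 and 0.55 on arrays 2 and 3. Its means were -1.03 ± 0.69, -0.23 ± 0.69 and 0.67 ± 0.69, none past the threshold. PGI1 had means of -0.70 ± 0.30, -0.14 ± 0.30 and -0.40 ± 0.30 and did not pass either. On arrays 2 and 3 alone PFK1 rose after o-nitrophenol (1.30 ± 0.23, adjusted p = 0.00182) and PGI1 fell after p-nitrophenol (-0.77 ± 0.23, adjusted p = 0.0265).

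The aldolase FBA1 and the triosephosphate isomerase TPI1, each a single-gene step, did not pass on 9 arrays. FBA1 had means of -0.06 ± 0.37, 0.35 ± 0.37 and 0.61 ± 0.37 after p-, m- and o-nitrophenol, and TPI1 of -0.10 ± 0.52, 0.30 ± 0.52 and 0.97 ± 0.52. For both, o-nitrophenol array 1 was negative (-0.10 and -0.65) and arrays 2 and 3 were 1.01 and 0.92 for FBA1 and 2.12 and 1.45 for TPI1. Without the arrays numbered 1 both rose after o-nitrophenol, FBA1 by 0.97 ± 0.24 (adjusted p = 0.0104) and TPI1 by 1.79 ± 0.29 (adjusted p = 0.00119).

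The glyceraldehyde-3-phosphate dehydrogenases differed from each other. TDH3 is the abundant form in growing cells, TDH2 is nearly identical to it, and TDH1 is known as the form of stationary-phase and stressed cells. TDH1 gave 1.49, 0.61 and -0.24 after p-nitrophenol, 3.31, 2.45 and 1.98 after m-nitrophenol and 3.53, 2.34 and 2.61 after o-nitrophenol. Every m- and o-nitrophenol array was above every p-nitrophenol array, and the m- and o-nitrophenol arrays overlapped. TDH1 rose 5.99-fold after m-nitrophenol (2.58 ± 0.38, adjusted p = 0.00245) and 7.10-fold after o-nitrophenol (2.83 ± 0.38, adjusted p = 0.000815), and had a mean of 0.62 ± 0.38 after p-nitrophenol (adjusted p = 0.258). Both calls held in all 18 alternatives that gave a value.

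TDH3 gave -0.16, -0.23 and -0.68 after p-nitrophenol, 0.50, 1.18 and 0.77 after m-nitrophenol and 0.86, 1.21 and 0.88 after o-nitrophenol. The p-nitrophenol arrays were all negative and the other 6 all positive. TDH3 rose 1.76-fold after m-nitrophenol (0.82 ± 0.24, adjusted p = 0.0431) and 1.98-fold after o-nitrophenol (0.99 ± 0.24, adjusted p = 0.0127). The m-nitrophenol call was lost when any array other than the p- or o-nitrophenol array 1 was left out (adjusted p of 0.0541 to 0.305), and the o-nitrophenol call without o-nitrophenol array 2 or 3 (0.0821 and 0.0545). When only genes on all 9 arrays were fitted, the m-nitrophenol call was also lost (adjusted p = 0.0658). TDH2 gave -0.21, -0.25 and -0.49 after p-nitrophenol, -0.51, 0.30 and 0.32 after m-nitrophenol and -1.08, 1.18 and 0.53 after o-nitrophenol, with no mean past the threshold. It rose after o-nitrophenol on arrays 2 and 3 alone (0.85 ± 0.24, adjusted p = 0.0182).

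The lower steps are run by the phosphoglycerate kinase PGK1, the phosphoglycerate mutase GPM1, the enolases ENO1 and ENO2 and the pyruvate kinases CDC19 and PYK2. GPM2, a paralog of GPM1, is described with them, and whether it adds to the mutase step was not tested. GPM2 gave 3.82, -1.83 and -0.44 after p-nitrophenol, 2.68, 1.41 and 1.81 after m-nitrophenol and 4.55, 2.98 and 3.38 after o-nitrophenol. Its m- and o-nitrophenol arrays were all above 1 and did not overlap, while its p-nitrophenol arrays spread over both sides of 0. GPM2 rose 12.5-fold after o-nitrophenol (3.64 ± 0.82, adjusted p = 0.00817), and its means of 0.52 ± 0.82 and 1.97 ± 0.82 after p- and m-nitrophenol did not pass. Its mean after p-nitrophenol changed sign without the arrays numbered 1 and was called lower (-1.13 ± 0.33, adjusted p = 0.0243), and GPM2 rose after m-nitrophenol (1.61 ± 0.33, adjusted p = 0.00544). GPM1 had means of 0.63 ± 0.47, 1.45 ± 0.47 and 1.10 ± 0.47, none past the threshold. GPM1 stood at -0.39 on o-nitrophenol array 1 and at 1.68 and 2.00 on arrays 2 and 3. It rose without the arrays numbered 1 after m-nitrophenol (1.17 ± 0.24, adjusted p = 0.00529) and o-nitrophenol (1.84 ± 0.24, adjusted p = 0.00041).

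ENO1, the enolase that glucose keeps lower, gave 0.42, -1.05 and 0.02 after p-nitrophenol, -0.46, 0.41 and 1.15 after m-nitrophenol and 0.64, 2.00 and 1.80 after o-nitrophenol. All o-nitrophenol arrays were above all p-nitrophenol arrays. ENO1 rose 2.79-fold after o-nitrophenol (1.48 ± 0.40, adjusted p = 0.018), a call lost without o-nitrophenol array 2 or 3 (adjusted p = 0.117 and 0.105). ENO2, the enolase of growth on glucose, had means of -0.58 ± 0.37, 0.43 ± 0.37 and 0.85 ± 0.37, none past the threshold. ENO2 without the arrays numbered 1 fell after p-nitrophenol (-0.80 ± 0.28, adjusted p = 0.0453) and rose after m-nitrophenol (0.80 ± 0.28, adjusted p = 0.0466) and o-nitrophenol (1.32 ± 0.28, adjusted p = 0.00436). PGK1 had means of -1.50 ± 0.67, -1.38 ± 0.67 and 0.42 ± 0.67, none past the threshold, and reached -3.46 on p-nitrophenol array 2 and -2.93 on m-nitrophenol array 2. CDC19, the pyruvate kinase of growth on glucose, had means of -1.08 ± 0.51, -0.89 ± 0.51 and -0.13 ± 0.51, and PYK2, which glucose represses, of 0.44 ± 0.31, 0.20 ± 0.31 and -0.02 ± 0.31. Neither passed. On arrays 2 and 3 alone, PGK1 and CDC19 fell after p-nitrophenol (-2.60 ± 0.57 and -1.33 ± 0.35, adjusted p = 0.00768 and 0.0157) and after m-nitrophenol (-1.65 ± 0.57 and -1.16 ± 0.35, adjusted p = 0.0481 and 0.0272).

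Of the 19 genes from hexokinase to pyruvate kinase, 15 had a negative mean after p-nitrophenol, 7 after m-nitrophenol and 5 after o-nitrophenol, with medians of -0.58, 0.20 and 0.85. Among all 5096 genes tested, 2322, 2460 and 2853 had a negative mean after p-, m- and o-nitrophenol. The median of the 19 genes on each array was 0.42, -0.90 and -0.55 for p-nitrophenol, -0.26, 0.07 and 0.57 for m-nitrophenol and -0.08, 1.16 and 0.92 for o-nitrophenol. Arrays 2 and 3 thus kept the order p, m, o and the arrays numbered 1 did not.

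**Figure D2:**
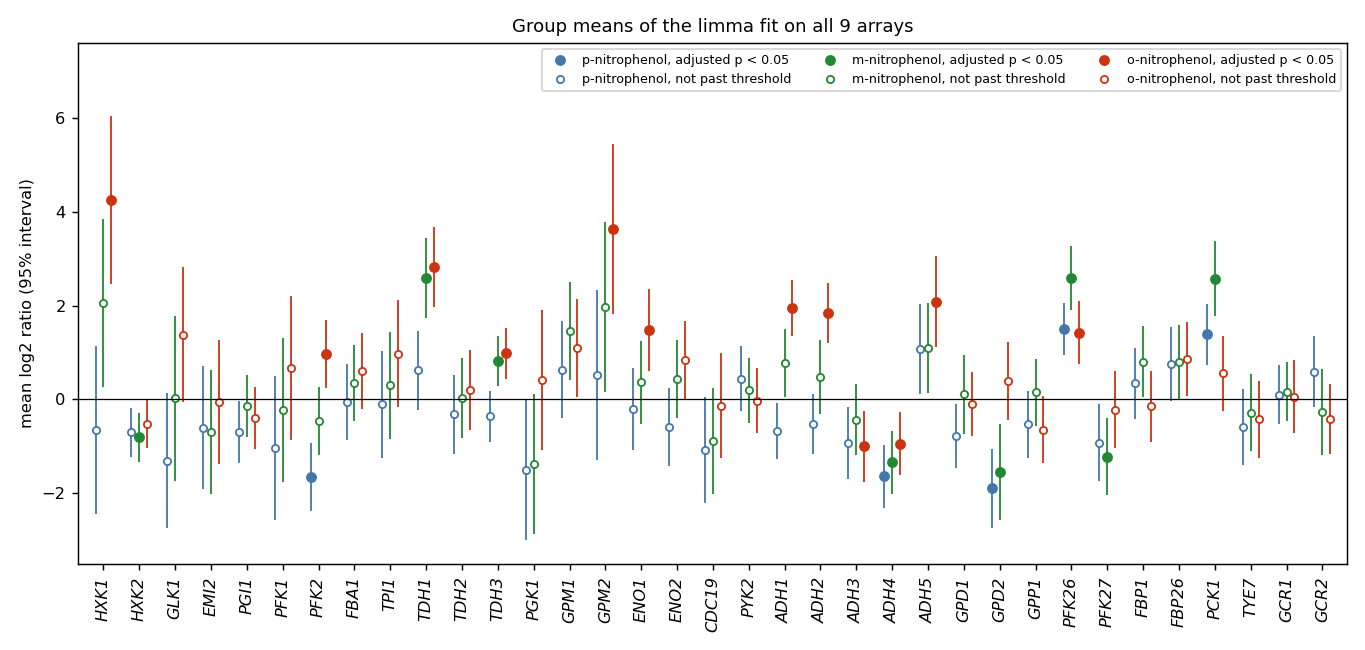
Mean log2 ratio of each gene in each isomer with its 95% interval from the limma fit on 9 arrays; filled points passed an adjusted p of 0.05. After o-nitrophenol 10 genes are filled above 0, among them HXK1 at 4.25 and GPM2 at 3.64, and PCK1 is filled after p- and m-nitrophenol at 1.39 and 2.57.

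ADH1 is the fermentative alcohol dehydrogenase, ADH2 the glucose-repressed form that oxidises ethanol, ADH3 the mitochondrial form, ADH4 a form of another protein family and ADH5 a minor relative of ADH1. ADH1 gave -1.16, -0.24 and -0.61 after p-nitrophenol, 0.67 and 0.90 on the m-nitrophenol arrays 2 and 3, which alone had a value, and 2.19, 1.91 and 1.74 after o-nitrophenol. The groups were fully separated in the order p, m, o. ADH1 rose 3.86-fold after o-nitrophenol (1.95 ± 0.26, adjusted p = 0.00108) in all 18 alternatives that gave a value, and its means of -0.67 ± 0.26 after p-nitrophenol and 0.78 ± 0.32 after m-nitrophenol did not pass. The latter passed without the arrays numbered 1 (0.78 ± 0.23, adjusted p = 0.0251).

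ADH2 gave -0.29, -1.05 and -0.24 after p-nitrophenol, 0.20 and 0.77 on m-nitrophenol arrays 2 and 3, and 1.93, 1.38 and 2.22 after o-nitrophenol. With the scans averaged it had the same order without overlap, while in the low-power scans the p- and m-nitrophenol arrays overlapped. ADH2 rose 3.58-fold after o-nitrophenol (1.84 ± 0.29, adjusted p = 0.00213). ADH2 and ADH1 are close in sequence, so their probes can share signal, as can those of TDH2 and TDH3 and of ENO1 and ENO2. How far they do was not tested.

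ADH5 was positive on all 9 arrays, at 0.46, 1.23 and 1.52 after p-nitrophenol, 0.60, 0.86 and 1.81 after m-nitrophenol and 3.51, 1.35 and 1.40 after o-nitrophenol. The groups overlapped. It rose 4.24-fold after o-nitrophenol (2.09 ± 0.43, adjusted p = 0.00571), and its means of 1.07 ± 0.43 and 1.09 ± 0.43 in the other isomers did not pass. On arrays 2 and 3 alone ADH5 rose by 1.38 ± 0.27, 1.33 ± 0.27 and 1.37 ± 0.27 after p-, m- and o-nitrophenol (adjusted p = 0.00483, 0.0053 and 0.00341).

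ADH4 was negative on all 9 arrays, at -1.79, -1.52 and -1.60 after p-nitrophenol, -0.92, -1.42 and -1.67 after m-nitrophenol and -1.72, -0.24 and -0.86 after o-nitrophenol. The groups overlapped. ADH4 fell in every isomer, 3.11-fold after p-nitrophenol (adjusted p = 0.00511), 2.53-fold after m-nitrophenol (adjusted p = 0.0146) and 1.92-fold after o-nitrophenol (adjusted p = 0.0368). The m-nitrophenol call was lost without m-nitrophenol array 2 or 3 (adjusted p = 0.117 and 0.125). The o-nitrophenol call was lost in 12 of 19 alternatives, among them centring each array on its median (adjusted p = 0.0763) and leaving out p-nitrophenol array 2 or 3, m-nitrophenol array 2 or 3, or o-nitrophenol array 1 or 3 (0.0513 to 0.173).

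ADH3 gave -0.36, -1.19 and -1.24 after p-nitrophenol, -0.11, -1.36 and 0.18 after m-nitrophenol and -1.44, -1.10 and -0.47 after o-nitrophenol. The groups overlapped. It fell 2.00-fold after o-nitrophenol (-1.001 ± 0.34, adjusted p = 0.0477), and its means after p-nitrophenol (-0.93 ± 0.34) and m-nitrophenol (-0.43 ± 0.34) did not pass. ADH3 fell after p-nitrophenol without the arrays numbered 1 (-1.22 ± 0.35, adjusted p = 0.0239). The o-nitrophenol call was lost in 13 of 19 alternatives, among them leaving out p-nitrophenol array 2 or 3, m-nitrophenol array 1 or 3 or any o-nitrophenol array (adjusted p of 0.0546 to 0.168).

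GPD1 and GPD2 are the glycerol-3-phosphate dehydrogenases, the former known for its response to osmotic stress and the latter for its response to lack of oxygen, and GPP1 is a glycerol phosphatase. GPD2 gave -2.14, -1.62 and -1.92 after p-nitrophenol, -1.87 and -1.22 on m-nitrophenol arrays 2 and 3, and 1.56, 0.09 and -0.46 after o-nitrophenol. The o-nitrophenol arrays were all above those of the other isomers, which overlapped. GPD2 fell 3.71-fold after p-nitrophenol (-1.89 ± 0.37, adjusted p = 0.00798) and 2.92-fold after m-nitrophenol (-1.55 ± 0.46, adjusted p = 0.0458), with a mean of 0.40 ± 0.37 after o-nitrophenol (adjusted p = 0.439). The m-nitrophenol call was lost without p-nitrophenol array 2 or 3 or o-nitrophenol array 2, with adjusted p values of 0.0616, 0.0722 and 0.0614. It was also lost with high-power scans alone (adjusted p = 0.0667) and with the replicate number as a block (0.089). Leaving out m-nitrophenol array 2 or 3 leaves 1 value, and the call was lost there too, at means of -1.22 and -1.87.

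GPD1 had means of -0.78 ± 0.30, 0.11 ± 0.37 and -0.09 ± 0.30 after p-, m- and o-nitrophenol, and GPP1 of -0.53 ± 0.32, 0.15 ± 0.32 and -0.64 ± 0.32. None passed on 9 arrays. GPD1 fell after p-nitrophenol on arrays 2 and 3 alone (-0.77 ± 0.24, adjusted p = 0.0314) and GPP1 after o-nitrophenol (-0.76 ± 0.22, adjusted p = 0.0201).

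PFK26 and PFK27 make fructose 2,6-bisphosphate, FBP26 breaks it down, FBP1 is fructose-1,6-bisphosphatase and PCK1 is phosphoenolpyruvate carboxykinase, the latter pair being the enzymes specific to gluconeogenesis. PFK26 was high on every array with a value, at 1.64, 1.40 and 1.48 after p-nitrophenol, 2.53 and 2.64 on m-nitrophenol arrays 2 and 3, and 1.59 and 1.26 on o-nitrophenol arrays 2 and 3. The m-nitrophenol values were above all others. PFK26 rose in every isomer, 2.84-fold (adjusted p = 0.00461), 5.99-fold (adjusted p = 0.00162) and 2.69-fold (adjusted p = 0.00845) after p-, m- and o-nitrophenol. The o-nitrophenol call was lost without o-nitrophenol array 2 or 3, which leaves 1 value (adjusted p = 0.0915 and 0.0527).

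PFK27, its isoenzyme, gave -2.13, -0.51 and -0.13 after p-nitrophenol, -0.99, -1.10 and -1.57 after m-nitrophenol and -0.75, 0.06 and 0.05 after o-nitrophenol. It fell 2.33-fold after m-nitrophenol (-1.22 ± 0.37, adjusted p = 0.0454). The m-nitrophenol arrays were below all o-nitrophenol arrays and overlapped those of p-nitrophenol. The call was lost without any m-nitrophenol array, p-nitrophenol array 2 or o-nitrophenol array 2 or 3 (adjusted p of 0.0571 to 0.232).

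PCK1 gave 1.99, 1.09 and 1.08 after p-nitrophenol, 2.70 and 2.45 on m-nitrophenol arrays 2 and 3, and 0.71 and 0.40 on o-nitrophenol arrays 2 and 3. The groups were separated, with m-nitrophenol highest and o-nitrophenol lowest. PCK1 rose 2.62-fold after p-nitrophenol (1.39 ± 0.28, adjusted p = 0.0108) and 5.96-fold after m-nitrophenol (2.57 ± 0.35, adjusted p = 0.00291), and its mean of 0.56 ± 0.35 after o-nitrophenol did not pass (adjusted p = 0.248). The m-nitrophenol call was lost without m-nitrophenol array 2, which leaves 1 value (adjusted p = 0.0611).

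FBP1 had values on arrays 2 and 3 alone, at 0.18 and 0.51 after p-nitrophenol, 1.01 and 0.60 after m-nitrophenol and -0.15 and -0.15 after o-nitrophenol, in the same order as PCK1 and with no mean past the threshold on 9 arrays. FBP26 had means of 0.75 ± 0.36, 0.80 ± 0.36 and 0.86 ± 0.36, also not past it. Both rose after m-nitrophenol on arrays 2 and 3 alone (0.80 ± 0.23 and 1.22 ± 0.26, adjusted p = 0.0238 and 0.0061). In the high-power scans FBP1 stood at 0.51 on p-nitrophenol array 3 and 0.34 on m-nitrophenol array 3, so these isomers overlapped there.

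TYE7, GCR1 and GCR2 encode activators of glycolytic genes. None of the 3 was called in any isomer by limma, and 0 had an unadjusted p below 0.05. Their means lay between -0.59 and 0.59 after p-nitrophenol, -0.28 and 0.16 after m-nitrophenol and -0.43 and 0.06 after o-nitrophenol. GCR2 gave 0.57, 0.66 and 0.56 on the p-nitrophenol arrays and was lower on each array of the other isomers that had a value, from -1.06 to 0.46.

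The isomers were then compared with each other in 3 pairs. Between o- and p-nitrophenol, 3 of 35 genes were called higher after o-nitrophenol, where 0.824% of all genes were higher and 0.353% lower. ADH1 was 6.15-fold higher (2.62 ± 0.37, adjusted p = 0.0129), PFK2 6.14-fold (2.62 ± 0.46, adjusted p = 0.027) and ADH2 5.15-fold (2.37 ± 0.41, adjusted p = 0.0284). None was called lower by limma, and 11 were higher and 0 lower at an unadjusted p below 0.05. The share of all genes at this unadjusted threshold was not counted, so 11 cannot be set against the shares above. All 3 calls were lost without p-nitrophenol array 2 or 3 or o-nitrophenol array 2 or 3, with adjusted p values of 0.0518, 0.0826, 0.0561 and 0.0564 for ADH1, 0.0536, 0.12, 0.0744 and 0.0918 for PFK2 and 0.13, 0.128, 0.0593 and 0.109 for ADH2. Those of PFK2 and ADH2 were also lost without m-nitrophenol array 2 or 3 (0.0531 to 0.0687). The differences themselves stayed between 2.03 and 2.94 in all alternatives for the 3 genes. With the replicate number as a block 6 genes were called higher, the 3 named and HXK1, TDH1 and TDH3. In that fit 106 of the 5096 genes tested were higher and 83 lower, against 42 and 18 in the main fit.

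Without the arrays numbered 1, 17 of 35 genes were higher after o- than after p-nitrophenol, where 9.35% of all genes were higher and 12.4% lower. They were HXK1, GLK1, PFK2, FBA1, TPI1, all 3 TDH genes, PGK1, GPM1, GPM2, ENO1, ENO2, CDC19, ADH1, ADH2 and GPD2. Of the 19 genes from hexokinase to pyruvate kinase, 14 were among them. The largest differences were those of HXK1 (4.95 ± 0.38, adjusted p = 0.000269) and GPM2 (4.32 ± 0.47, adjusted p = 0.00126). On 9 arrays these were 4.90 ± 1.14 (adjusted p = 0.0686) and 3.12 ± 1.16 (adjusted p = 0.178), so the sizes were near each other for HXK1 and the standard errors were larger.

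Between m- and p-nitrophenol none of the 35 genes was called by limma on 9 arrays, where 0.00% of all genes were higher and 0.0196% lower. At an unadjusted p below 0.05, 7 were higher, a threshold at which the share of all genes was not counted. The median half-width of the unadjusted 95% interval of this difference was 1.15 over the genes tested. HXK1 (2.70, 95% interval 0.18 to 5.23, adjusted p = 0.678) and TDH1 (1.96, 0.76 to 3.16, adjusted p = 0.605) had the highest values, so differences of this size did not pass at this number of arrays. Of the 35 differences, 30 were positive, with a median of 0.50 against -0.05 over all genes, where 2388 of 5096 were positive. Without the arrays numbered 1, HXK1, GLK1, TDH1, TDH3, GPM2, ENO2 and PCK1 were higher after m-nitrophenol, 7 of 35, where 2.94% of all genes were higher and 2.96% lower.

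Between o- and m-nitrophenol none was called by limma on 9 arrays, where 0.412% of all genes were higher and 0.314% lower. At an unadjusted p below 0.05, 4 were higher and 2 lower, a threshold at which the share of all genes was not counted. PCK1 was 4.05-fold lower after o-nitrophenol (-2.02 ± 0.49, 95% interval -3.14 to -0.90, adjusted p = 0.0884) and GPD2 3.84-fold higher (1.94 ± 0.59, 95% interval 0.61 to 3.27, adjusted p = 0.135). Without the arrays numbered 1, HXK1, PFK1, TPI1, GPM2, CDC19, GPD2 and PFK27 were higher and PCK1 and PFK26 lower after o-nitrophenol, where 9.45% of all genes were higher and 11.8% lower.

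Counted by arrays that do not overlap, m-nitrophenol was above p-nitrophenol for 11 genes (31.4%) and below it for GCR2, where 12.1% and 13.2% of all genes did so. For o- against p-nitrophenol 10 genes (28.6%) were above and FBP1, PCK1 and GCR2 below, where 10.8% and 20.3% of all genes were. For o- against m-nitrophenol 8 (22.9%) were above and PFK26, FBP1 and PCK1 below, where 14.1% and 24.4% were. GLK1, PFK2, ADH1 and ADH2 were separated in all 3 pairs in the order p, m, o. For GLK1 the step from m to o was slight, with 0.08 on o-nitrophenol array 3 and 0.05 on m-nitrophenol array 3. The 2 scans of an array differed by a median of 0.179 for this gene. In the low-power scans GLK1 stood at 0.14 on m-nitrophenol array 2 and 0.06 on o-nitrophenol array 3, so these isomers overlapped there. ADH2 stood in the low-power scans at 0.15 on p-nitrophenol array 1 and -0.14 on m-nitrophenol array 2. For ADH2 the p- and m-nitrophenol arrays thus overlapped in these scans.

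**Figure D3:**
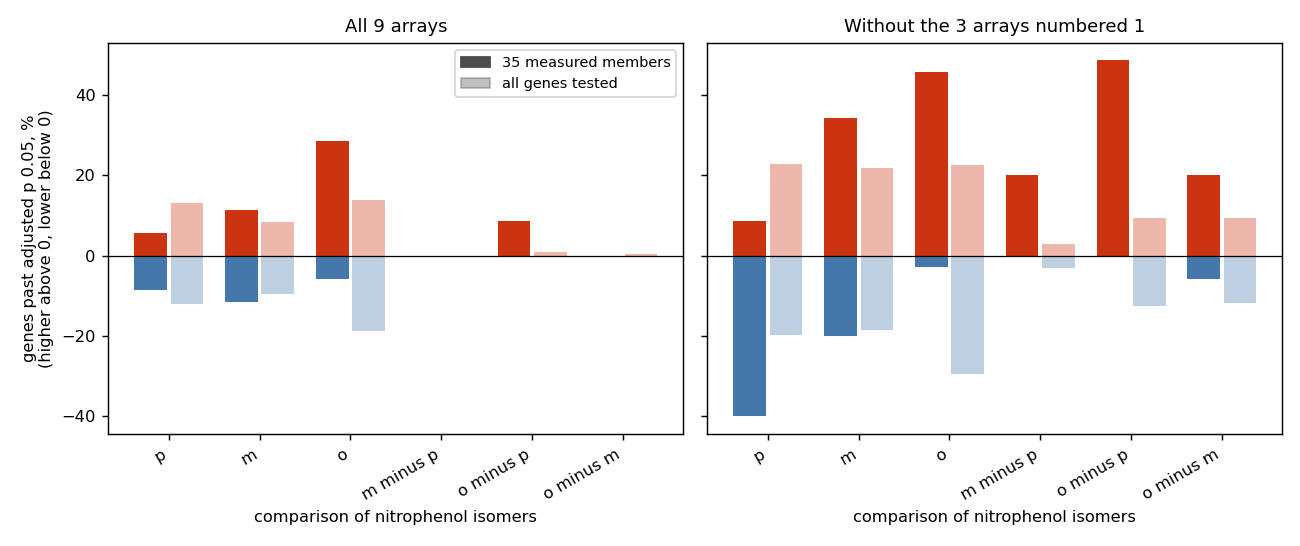
Percent of the 35 genes (dark bars) and of all genes tested (pale bars) past an adjusted p of 0.05 in each comparison, higher above 0 and lower below 0, on all 9 arrays (left) and without the 3 arrays numbered 1 (right). In o minus p 3 of 35 are higher on 9 arrays and 17 of 35 without the arrays numbered 1, where 0.824% and 9.35% of all genes are.

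Isoenzymes, paralogs and subunits were compared within each array, where the difference of log2 ratios shows whether 1 gene of a pair changed more than its partner and says nothing about their levels. Of 14 pairs tested, the 2 that passed were TDH1 against TDH2 and TDH1 against TDH3. TDH1 exceeded TDH2 on 9 of 9 arrays by 2.03 ± 1.39 (SD) and TDH3 on 9 of 9 by 1.53 ± 0.79. Both gave an exact two-sided sign-flip p of 0.00391, the smallest that 9 arrays allow, and 0.0273 after Benjamini-Hochberg adjustment over the 14 pairs. This test pools arrays of 3 isomers at different doses and takes them as independent, though the control RNA may have been shared. All arrays have the same dye order. A dye effect or 2 h of growth that is unequal between 2 genes cannot be told apart from the compound. The values of TDH1 minus TDH2 were 1.70, 0.86 and 0.25 after p-nitrophenol, 3.82, 2.16 and 1.66 after m-nitrophenol and 4.61, 1.16 and 2.08 after o-nitrophenol. Those of TDH1 minus TDH3 were 1.65, 0.84 and 0.44, 2.81, 1.28 and 1.21, and 2.67, 1.13 and 1.73. Without any 1 array other than p-nitrophenol array 3 the adjusted p was 0.0547 for both pairs, since 8 arrays allow no smaller p than 0.00781. In these settings the mean differences were 1.71 to 2.18 against TDH2 and 1.37 to 1.61 against TDH3.

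PFK26 exceeded PFK27 on 7 of 7 arrays by 2.55 ± 1.26 (exact p = 0.0156, the smallest that 7 arrays allow, adjusted p = 0.0684). HXK1 exceeded HXK2 on 7 of 9 arrays by 2.56 ± 2.64 (adjusted exact p = 0.0684), and the exceptions were p-nitrophenol arrays 2 and 3, at -1.09 and -1.36. ADH3 was below ADH1 on 7 of 8 arrays by a mean of -1.54 ± 1.44 (adjusted exact p = 0.0752), and on the o-nitrophenol arrays by -3.63, -3.00 and -2.20. GPD1 exceeded GPD2 on each p- and m-nitrophenol array, by 1.36, 0.61 and 1.39 and by 1.90 and 1.41, and lay below it on each o-nitrophenol array, at -0.84, -0.38 and -0.23, so that the mean of 0.65 over all 8 arrays did not pass (adjusted exact p = 0.175). PYK2 exceeded CDC19 by 0.91 ± 1.07 and ENO1 exceeded ENO2 by 0.31 ± 0.36, each on 7 of 9 arrays (adjusted exact p = 0.0752 for both).

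TDH2 minus TDH3 averaged -0.51 ± 0.67 (adjusted exact p = 0.0752), and it was the further pair that passed without p-nitrophenol array 3 (0.0365). ADH5 minus ADH1 averaged 0.84 ± 0.98 (adjusted exact p = 0.0851), with 1.74 after p-nitrophenol and 0.14 after o-nitrophenol. GPM2 minus GPM1 averaged 0.98 ± 1.94, GLK1 minus EMI2 0.51 ± 1.50, PFK1 minus PFK2 0.18 ± 1.13 and ADH2 minus ADH1 -0.06 ± 0.58, with adjusted exact p values of 0.224, 0.456, 0.682 and 0.766.

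**Figure D4:**
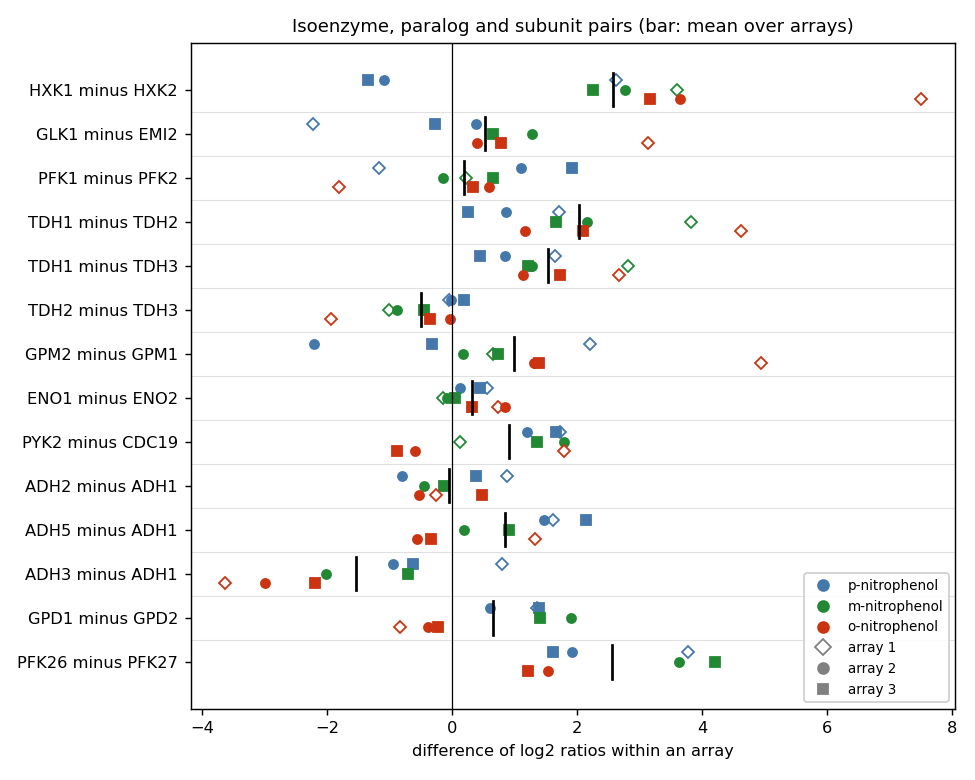
Difference of log2 ratios within each array (horizontal axis) for 14 pairs of isoenzymes, paralogs or subunits, coloured by isomer, with a black bar at the mean over arrays. TDH1 lies above TDH2 and TDH3 on all 9 arrays, and GPD1 minus GPD2 is positive after p- and m-nitrophenol and negative after o-nitrophenol.

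Genes that neighbour these pathways were counted as lists, to be read against the shares of all genes that rose (13.0%, 8.26% and 13.8% after p-, m- and o-nitrophenol) and fell (11.9%, 9.65% and 18.7%) and their medians (0.10, 0.04 and -0.17). Many counts of 1 or 2 in lists of this size lie near those shares. Some are larger shares, such as 2 of 9 and 2 of 7 genes that rose after m-nitrophenol. No list was tested against all genes. Of 9 genes of the glyoxylate cycle and further gluconeogenic steps, 2 rose in each isomer. They were SDH7, a succinate dehydrogenase assembly factor (1.60 ± 0.33, adjusted p = 0.00949), and MDH2, the cytosolic malate dehydrogenase (1.32 ± 0.41, adjusted p = 0.0445), after p-nitrophenol. After m-nitrophenol they were SDH7 (2.24 ± 0.33, adjusted p = 0.00298) and SFC1, the succinate-fumarate carrier (1.42 ± 0.33, adjusted p = 0.0268), and after o-nitrophenol AGX1, which makes glycine from glyoxylate (1.63 ± 0.55, adjusted p = 0.0492), and SFC1 (1.16 ± 0.33, adjusted p = 0.0344). SFC1 had values on 2 m-nitrophenol and 2 o-nitrophenol arrays, and AGX1 gave 3.19, 0.10 and 1.59 on the o-nitrophenol arrays. The list's median was 0.37, 0.69 and 0.65. Of 15 genes of glucose repression and its relief, 1, 2 and 3 rose after p-, m- and o-nitrophenol, with medians of -0.19, -0.02 and -0.24. SIP4, an activator of gluconeogenic genes, rose in all 3 (2.37 ± 0.35, 1.76 ± 0.35 and 1.89 ± 0.35, adjusted p = 0.00451, 0.0156 and 0.00687), on the 2 arrays of each isomer with a value. MIG3, a repressor, rose after m- and o-nitrophenol (1.18 and 1.08), and GLC7, a protein phosphatase, after o-nitrophenol (1.82). These values also rest on 2 arrays each.

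Of 8 glucose-sensing genes, 1 rose and 2 fell after p-nitrophenol, 1 fell after m-nitrophenol, and 1 rose and 2 fell after o-nitrophenol, with medians of -0.03, -0.15 and -0.48. The casein kinase YCK2 fell in all 3 (-1.34, -1.41 and -0.72), its paralog YCK1 after o-nitrophenol (-1.57) and the repressor RGT1 after p-nitrophenol (-1.47, on 2 arrays). STD1 rose after p-nitrophenol (1.31) and its paralog MTH1 after o-nitrophenol (2.44), the latter at 5.03 on array 1 and 1.38 and 0.92 on arrays 2 and 3. Of 12 genes that take pyruvate to acetyl-CoA or oxaloacetate, 1 rose and 1 fell after p-nitrophenol, 1 fell after m-nitrophenol, and 3 rose and 3 fell after o-nitrophenol (medians -0.02, 0.42 and 0.06). The acetyl-CoA synthetase ACS2 fell in all 3 (-2.07 ± 0.31, -1.56 ± 0.31 and -2.13 ± 0.31, adjusted p = 0.00217, 0.00795 and 0.00108). After o-nitrophenol the acetaldehyde dehydrogenase ALD6 fell (-2.25) and the pyruvate carboxylase PYC1 rose (1.41), and MPC2, a mitochondrial pyruvate carrier subunit, rose after p- and o-nitrophenol (1.44 and 1.30).

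Of 11 other glycerol genes, 1 rose and 1 fell after p-nitrophenol (the glycerol dehydrogenase GCY1, 2.67, and the glycerol kinase GUT1, -1.06), 1 rose after m-nitrophenol (the glycerol transporter STL1, 1.26), and 1 rose and 1 fell after o-nitrophenol (the dihydroxyacetone kinase DAK1, 0.95, and GUP1, -1.25). STL1 had values on 2 of the m-nitrophenol arrays. The medians of the 11 genes were -0.13, 0.58 and 0.25. Of 12 genes of the high-osmolarity pathway, which controls GPD1, 1 rose (HOT1, 0.90) and 1 fell (the membrane sensor SHO1, -1.91) after p-nitrophenol. After m-nitrophenol limma called 0 of them, and after o-nitrophenol 3 fell (SHO1, -2.21, the kinase SSK22, -1.65, and the repressor SKO1, -2.68). SKO1 had values on o-nitrophenol arrays 2 and 3 alone, at -3.83 and -1.53. The medians of the 12 genes were 0.13, 0.11 and -0.59. Of 7 other alcohol and polyol dehydrogenases, 1, 2 and 2 rose (medians 0.72, 0.80 and 0.78), among them the sorbitol dehydrogenase SOR1 in all 3 isomers (0.99, 2.19 and 1.97), XYL2 after m-nitrophenol (1.34) and BDH2 after o-nitrophenol (2.24). Of 10 general regulators bound upstream of glycolytic genes, 2, 1 and 2 fell (medians -0.63, -0.23 and -0.19), RAP1 in all 3 isomers (-1.23, -1.57 and -0.86) and the stress activator MSN2 after p- and o-nitrophenol (-0.77 and -0.73). The m-nitrophenol values of SOR1, XYL2 and RAP1 and the o-nitrophenol value of SOR1 rest on 2 arrays each.

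Markers of the general stress response were counted in the same way. Of 20 such markers, 5 rose and 2 fell after p-nitrophenol, where 13.0% of all genes rose and 11.9% fell, so that the fall is near the share over all genes. After m-nitrophenol 9 rose (8.26% of all genes) and after o-nitrophenol 14 rose (13.8%). Their medians were 0.64, 1.43 and 2.96, against 0.10, 0.04 and -0.17 over all genes. HSP12 and DDR2 rose in all 3 isomers (2.59, 3.41 and 5.75 for HSP12, 3.16, 2.65 and 6.17 for DDR2), HSP26 rose after m- and o-nitrophenol (4.10 and 6.30), and the catalase CTT1 fell after p-nitrophenol (-2.11).

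The median of the markers on each array was 1.73, -0.26 and -0.27 for p-nitrophenol, 1.81, 1.37 and 1.30 for m-nitrophenol and 3.96, 2.82 and 2.17 for o-nitrophenol. The marker medians ran in the order p, m, o for each array number. The medians of the 19 glycolytic genes did so on arrays 2 and 3 and not on the arrays numbered 1. On the m- and o-nitrophenol arrays numbered 1 the marker medians of 1.81 and 3.96 stood beside glycolytic medians of -0.26 and -0.08. The p-nitrophenol array 1 had a marker median of 1.73 and a glycolytic median of 0.42, with values from -3.74 (PFK1) to 3.82 (GPM2). The part of the stress response in the results above was not tested.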

How the data were processed

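RNA of 9 yeast cultures was measured on 2-colour arrays with 2 scans each, 18 columns of values for 6912 probes. The deposited values are log2 ratios, which the authors normalized with LOWESS on spots flagged 0, per the labels. That they are log2 was read from the values, since 13 lie at the log2 of 0.01. Nothing beside the values gives their direction, and treated over before treatment is the likely one, by the dye and channel of each RNA in the labels. The background correction was not given in the sources used here. A merge of the scans named in the labels was not used. Precision is limited by how few arrays there are.

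The 36 genes and the lists were chosen with earlier results of these data known. Probes were named through an older array annotation, in which 5513 probes have 1 gene symbol and 1399 none, and symbols were updated by Entrez identifier with a RefSeq table (5360 of 5365 genes matched). Scans of an array were averaged. limma 3.58.1 (R 4.3.3) estimated the mean of each isomer for genes with at least 2 arrays in each group (5096), with 6 residual degrees of freedom at most and 4.409 prior ones, and p-values were adjusted with the Benjamini-Hochberg method within each of 6 contrasts. A missing value was dropped from the gene's fit. Pairs of genes were tested with exact two-sided sign flips over at least 6 arrays. Of 15 pairs planned, 14 could be tested, since GPP2 had no named probe. The scripts were tested on simulated data. The value on every array is given for genes past the threshold in any contrast and for both genes of a pair past it. Of each list, at most 4 genes with the largest change per isomer are named.

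Replicate numbers are shared between isomers. Deviations from the group means of same-numbered arrays correlated at 0.27 to 0.37 for p and o, 0.12 to 0.26 for p and m, and 0.06 to 0.22 for m and o, over 1757 genes. Arrays with different numbers correlated at -0.35 to 0.23, so same-numbered arrays tended to deviate alike. The lowest same-number value, 0.06, lies under the limit of 0.1 used for calling arrays paired, so the main fit has no block. A fit with a block is an alternative, and it called 6 genes higher for o minus p, against 3 in the main fit. The other alternatives were single scans, both scans kept apart with a random block for the array, median centring, quantile normalization, other filters, the first probe of a gene, and leaving out single arrays or those numbered 1.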

Additional observations from a re-analysis of the deposited data

Results flagged for a closer look

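The effect of 2 isomers differed by the test of the difference itself for 3 genes, all higher after o- than after p-nitrophenol: ADH1 by 2.62, PFK2 by 2.62 and ADH2 by 2.37 on the log2 scale (limma, adjusted p = 0.0129, 0.027 and 0.0284).

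In further genes every array of 1 isomer was positive and every array of another negative, while the difference itself did not pass in limma. The share of all genes with such opposite signs was not counted. Arrays of 2 isomers that do not overlap, a wider class, were found for 10.8% to 24.4% of all genes in each pair and direction. Those shares are upper limits for opposite signs, so how common such a pattern is over all genes cannot be told from them. Between m- and p-nitrophenol these were TDH3 (1.18), ADH1 (1.45), ADH2 (1.01) and GPD1 (0.88), higher after m-nitrophenol, with adjusted p values of 0.605, 0.605, 0.678 and 0.742. All but TDH3 have 2 m-nitrophenol arrays. In the low-power scans ADH2 gave 0.15 on p-nitrophenol array 1 and -0.14 on m-nitrophenol array 2. GPD1 gave -0.01 in the low-power scan of m-nitrophenol array 2. Both genes thus lose the opposite signs in these scans. Between o- and p-nitrophenol GLK1 (2.69) and TDH3 (1.34) were higher after o-nitrophenol (adjusted p = 0.161 and 0.0832), and FBP1 (-0.49) and GCR2 (-1.01) lower (adjusted p = 0.583 and 0.278). Between o- and m-nitrophenol PGK1 was higher after o-nitrophenol (1.80, adjusted p = 0.354) and FBP1 lower (-0.95, adjusted p = 0.328). FBP1 has 2 arrays in each isomer.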

How the results depend on the processing

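No called gene changed direction under any alternative. Without the 3 arrays numbered 1, the counts of genes called higher and lower were 3 and 14 after p-nitrophenol (2 and 3 with them), 12 and 7 after m- (4 and 4), 16 and 1 after o-nitrophenol (10 and 2), 7 and 0 for m minus p (0 and 0), 17 and 0 for o minus p (3 and 0), and 7 and 2 for o minus m (0 and 0). For p-nitrophenol, the count lower was 6 with the array as a random block over scans, 8 with quantile normalization and 5 with the replicate block, and the count higher was 0 among the genes on all 9 arrays. Over all genes the count lower was 606 in the main fit and 713, 771 and 747 in these settings. The count higher was 661 in the main fit and 306 among the 1757 genes on all 9 arrays. For m-nitrophenol, the count higher was 7 with the random block, 7 with quantile normalization and 1 among genes on all 9 arrays, and the count lower was 2 with high-power scans and 2 among genes on all 9 arrays. Over all genes the count higher was 421 in the main fit and 503, 639 and 173 in these settings. The count lower was 492 in the main fit, 441 of 5037 genes with high-power scans and 200 among genes on all 9 arrays. For o-nitrophenol, the count higher was 6 among genes on all 9 arrays, and the count lower was 0 with high-power scans, low-power scans, median centring or quantile normalization, and 1 with the random block or on genes on all 9 arrays. Over all genes the count higher was 702 in the main fit and 303 among genes on all 9 arrays. The count lower was 951 in the main fit, 884 of 5037 genes with high-power and 604 of 3776 with low-power scans. It was 722 with median centring, 741 with quantile normalization, 1035 with the random block and 289 among genes on all 9 arrays. For o minus p, the count higher was 7 with low-power scans, 9 with the random block, 5 with quantile normalization, 1 on genes on all 9 arrays and 6 with the replicate block. Over all genes the count higher was 42 in the main fit and 62, 131, 55, 18 and 106 in these settings. For o minus m, the count lower was 1 with quantile normalization, where it was 26 over all genes, against 16 in the main fit. Genes on all 9 arrays are 1757 of 5096, which leaves out members such as PCK1 and PFK26. Apart from that construction the cause was not tested.

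With the replicate number as a block, the fall of GPD2 after m-nitrophenol was lost (-1.32, adjusted p = 0.089), and no other call of a gene named with its values was. Not every array correlated best with its own number. Leaving out single arrays gave 2 to 3 higher and 3 to 8 lower after p-nitrophenol, 2 to 7 and 0 to 4 after m-nitrophenol, 6 to 12 and 0 to 2 after o-nitrophenol, 0 to 6 higher for o minus p and 0 to 1 lower for o minus m. Over all genes these settings gave 211 to 913 higher and 288 to 789 lower after p-nitrophenol and 47 to 637 and 100 to 640 after m-nitrophenol. They gave 380 to 815 and 461 to 1110 after o-nitrophenol, 4 to 112 higher for o minus p and 0 to 150 lower for o minus m. Of the gene pairs 2 passed, and 0 to 3 without single arrays. With high-power scans 9 pairs were testable, the TDH1 pairs not among them, and 0 passed. Without the arrays numbered 1 also 0 passed, but 6 arrays allow no p under 0.03125, which became 0.109 for both TDH1 pairs, so this setting says nothing about their stability. The median over the genes after p-nitrophenol was -0.53 and moved to -0.28 and -0.32 without its array 2 or 3, and that of o minus p was 0.70 and moved to 1.22 without the arrays numbered 1.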
